A study of Mus musculus with 6 samples.

Results

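The netrin family was examined here as 10 genes: the netrins Ntn1 and Ntn4, the netrin-G genes Ntng1 and Ntng2, the receptors Dcc and Neo1, and the UNC5 receptors Unc5a, Unc5b, Unc5c and Unc5d. The genes were taken by name. Every probe set annotated to exactly 1 of them was included, which gave 24 probe sets, out of 18193 named genes and 45037 probe sets on the array other than controls. No probe set named a family gene together with another gene. RNA came from the modiolus, the bony core of the cochlea that houses the spiral ganglion neurons, the auditory nerve and their glia. All 6 mice were of the CBA/CaJ strain, with no transgene or gene deletion in the labels, and both modioli of a mouse were pooled on 1 array. The 3 noise-exposed mice had been exposed for 5 h, at 4 weeks of age, to noise of 5 to 20 kHz at 110 dB SPL. The 3 unexposed mice stayed in the holding room, and modioli of both groups were taken at 8 weeks of age. The study asked which guidance receptors the adult cochlea expresses and whether their levels stay altered long after noise damage.

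The groups also differed in other ways. After noise there were 3 females from a single litter, and all were dissected on day 1 of a 2-day dissection. Without noise there were 1 female and 2 males from 3 litters, and only 1 of these, a male, was dissected on day 1, here called the first day. The unexposed female was dissected on day 2, so no unexposed mouse matched the noise-exposed mice in both sex and day. Values below against the unexposed female alone thus also differ in day, and values against the first-day unexposed mouse alone in sex. Exposure and litter cannot be told apart. In a bulk sample of this kind, fewer cells of a type and less RNA per cell cannot be told apart either.

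Netrin-1 is a secreted, laminin-related cue that attracts axons through DCC and repels them through UNC5 receptors, alone or together with DCC. Neogenin, the product of Neo1, is the closest relative of DCC and also binds repulsive guidance molecules. The netrin-Gs are anchored to the axon surface by a lipid and bind the synaptic adhesion proteins encoded by Lrrc4c and Lrrc4 rather than DCC or UNC5. DCC and the UNC5 proteins are also known as dependence receptors, which can promote cell death when netrin is absent.

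Of the 10 genes, 6 had a probe set above the authors' signal cutoff, which is 19.0 on the linear scale, on all 6 arrays: Ntn4, Ntng1, Dcc, Neo1, Unc5c and Unc5d. The same held for 60.2% of all named genes. Ntn1 passed on 5 arrays, Ntng2 and Unc5a on 1 array each, and Unc5b on none. Counted by probe set, 12 of 24 passed on all 6 arrays, against 49.7% of all probe sets, and 8 of 24 passed on none, against 37.6%. Both shares of family probe sets were near those of the whole array. A signal under the cutoff was not distinguished from background hybridization and does not show that a transcript was absent. Signals of different probe sets depend on their probes and are not ranked against each other here.

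**Figure D1:**
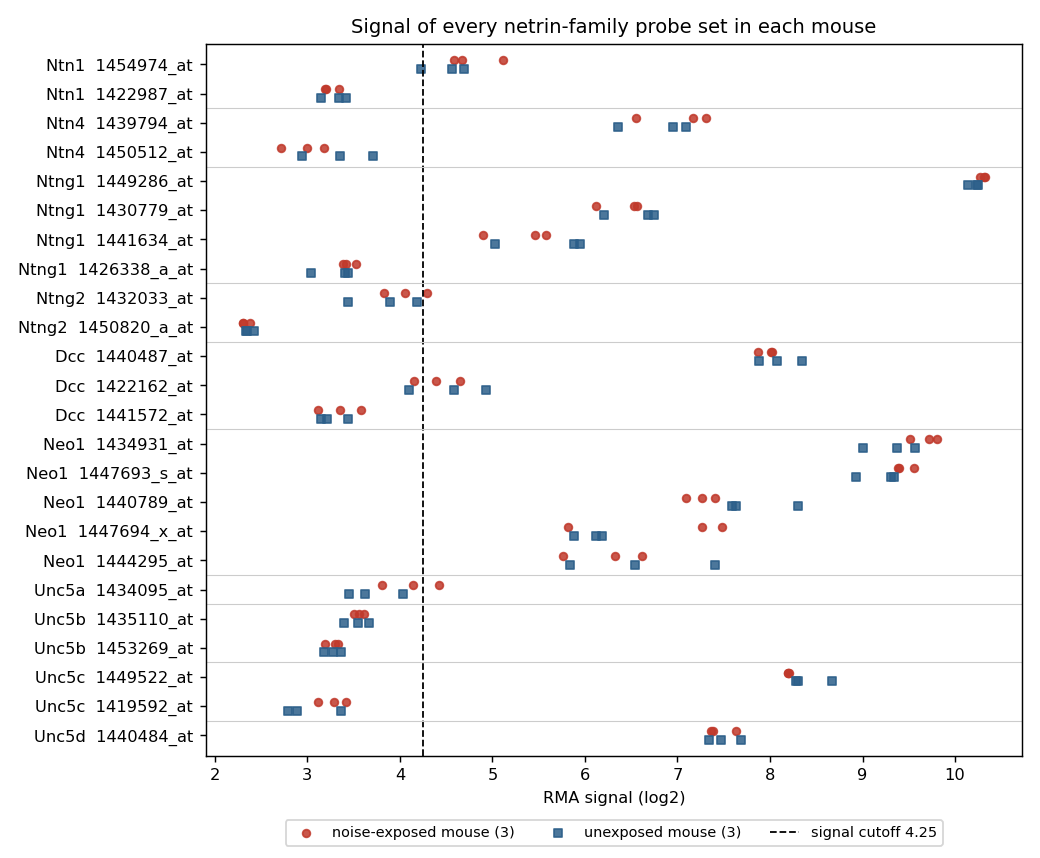
RMA signal (log2, horizontal axis) of each of the 24 netrin-family probe sets in 3 noise-exposed mice (circles) and 3 unexposed mice (squares), with the authors' cutoff as a dashed line. In most genes with several probe sets the signals lie far apart, and the 2 groups overlap for most probe sets.

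For the difference between noise-exposed and unexposed mice, 14 probe sets of 7 genes passed the filter, a signal above the cutoff on at least 3 arrays. None of the 14 was called by limma at an adjusted p under 0.05, and neither was any of the 25200 probe sets tested, a background of 0%. The adjusted p of the 14 lay between 0.697 and 0.956, and the lowest of all tested probe sets was 0.265. At an unadjusted p under 0.05, 1 of the 14 passed in limma, against 7.07% of all tested probe sets. The log2 fold change, noise-exposed minus unexposed throughout, was above 0 for 6 and below 0 for 8, whereas 56.3% of all tested probe sets were above 0. Their median was -0.08, beside 0.04 for all tested probe sets, and it lay above 0 under 8 of 18 alternatives. In 4 probe sets the values of the groups were fully separated, 2 higher and 2 lower after noise. Over all tested probe sets these shares were 13.5% in either direction, 8.47% higher and 5.02% lower. With 3 mice against 3, an exact two-sided permutation test of a single value cannot go below a p of 0.1. The median standard error of a log2 fold change was 0.20 for the family and 0.19 for all tested probe sets.

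**Figure D2:**
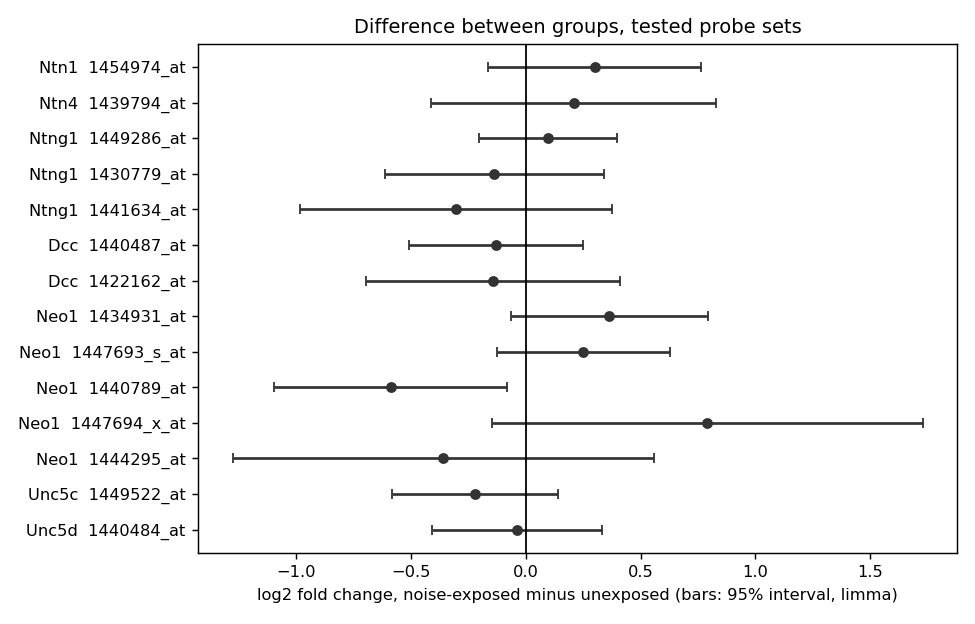
Log2 fold change (horizontal axis, noise-exposed minus unexposed, 3 mice each) of the 14 tested netrin-family probe sets, with limma's 95% intervals as bars. The interval excludes 0 for 1 probe set, 1440789_at of Neo1, which was not called after adjustment.

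Among the netrins, Ntn1 encodes the secreted cue netrin-1. Its probe set 1454974_at gave 4.67, 4.59 and 5.12 in the noise-exposed mice and 4.23, 4.69 and 4.56 in the unexposed mice (log2). Most of these lay close to the cutoff, 1 unexposed mouse was just under it, and the groups overlapped. The difference was 0.30 (SE 0.20), with a 95% interval of -0.16 to 0.76 and an adjusted p of 0.749 in limma. It was 0.57 against the unexposed mouse dissected on the first day alone and 0.10 against the unexposed female alone. The other Ntn1 probe set, 1422987_at, stayed between 3.15 and 3.41 and passed on no array.

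Ntn4 encodes netrin-4, a netrin of basement membranes that binds laminins. Probe set 1439794_at gave 7.30, 6.55 and 7.17 after noise and 6.95, 6.35 and 7.10 without noise. In each group 1 mouse was lower than the rest, and the groups overlapped. The difference was 0.21 (SE 0.27, adjusted p = 0.854, limma), but 0.65 against the unexposed female alone, 0.06 against the first-day unexposed mouse alone and -0.01 without the second unexposed mouse. The second probe set, 1450512_at, lay between 2.71 and 3.71, under the cutoff in every mouse. For Ntn4, whether the gene counted as detected thus depended on the probe set read. For Ntn1, neither probe set passed on every array.

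In the 6-array values, the netrin-G genes differed from each other in detection. Ntng1 encodes netrin-G1, a partner of the protein encoded by Lrrc4c. Its brightest probe set, 1449286_at, gave 10.31, 10.27 and 10.33 after noise and 10.25, 10.14 and 10.23 without noise. All 3 noise-exposed values were higher than all 3 unexposed values, but the whole range over the 6 mice was 0.19. The group means were 10.30 ± 0.03 and 10.21 ± 0.06 (SD, n = 3 each). The difference was 0.10 (SE 0.13), with a 95% interval of -0.20 to 0.40 (adjusted p = 0.860, limma). It was 0.06 against the first-day unexposed mouse alone and 0.17 against the unexposed female alone. Only 1.52% of all tested probe sets had a smaller SD over the 6 arrays.

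Other Ntng1 probe sets were less even. Probe set 1430779_at gave 6.53, 6.11 and 6.56 after noise and 6.20, 6.74 and 6.68 without noise, a difference of -0.14 (SE 0.21, adjusted p = 0.876, limma). Probe set 1441634_at gave 5.46, 4.90 and 5.58 against 5.02, 5.89 and 5.95, a difference of -0.30 (SE 0.29, adjusted p = 0.805, limma). In both, the unexposed mouse dissected on the first day was the lowest of its group. Against that mouse alone, the differences were 0.20 and 0.29, the opposite sign, and against the unexposed female alone they were -0.34 and -0.57. The fourth probe set, 1426338_a_at, stayed between 3.04 and 3.52, under the cutoff in all mice.

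Ntng2 encodes netrin-G2, a partner of the protein encoded by Lrrc4. Probe set 1432033_at gave 4.29, 4.05 and 3.83 after noise and 3.89, 4.18 and 3.44 without noise, so that 1 of 6 mice passed the cutoff. Probe set 1450820_a_at lay between 2.30 and 2.42. Neither was tested.

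Start regions of Ntng1, detected in the 6-array values, and Ntng2, mostly undetected there, are shown because they differ in their content of CG pairs. Such pairs cluster in the promoters of many widely expressed genes. Both are RefSeq windows of GRCm38.p6, 300 bases that end just after an annotated start, read 5′ to 3′ on the minus strand, with every CG in capitals. The Ntng1 window lies at chr3:110143423-110143722, inside the gene, which begins at 110149972 on this strand. The Ntng2 window lies at chr2:29248050-29248349 and holds the outermost start of its gene, 29248099. An inner start of Ntng1 thus stands beside the outermost start of Ntng2.
Ntng1: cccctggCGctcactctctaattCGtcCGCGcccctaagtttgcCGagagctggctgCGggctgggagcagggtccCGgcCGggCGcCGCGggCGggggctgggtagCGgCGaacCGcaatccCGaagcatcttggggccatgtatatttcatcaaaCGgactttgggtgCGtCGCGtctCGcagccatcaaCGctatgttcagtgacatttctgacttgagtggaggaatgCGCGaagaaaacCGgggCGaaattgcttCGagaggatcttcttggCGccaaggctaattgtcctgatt
Ntng2: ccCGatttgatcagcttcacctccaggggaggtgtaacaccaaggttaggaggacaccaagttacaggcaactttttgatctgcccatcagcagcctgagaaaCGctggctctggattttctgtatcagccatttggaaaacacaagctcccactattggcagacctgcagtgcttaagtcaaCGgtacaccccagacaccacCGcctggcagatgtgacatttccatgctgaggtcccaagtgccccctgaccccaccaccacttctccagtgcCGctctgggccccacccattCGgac

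The Ntng1 window holds 28 CG pairs and the Ntng2 window 6, beside a median of 7 over all 32851 windows of this length. Of the family, 7 genes had a window, 1 each. Neo1 held 54, a number that 0.347% of all windows reach, Ntn4 held 31 and Unc5c held 24. Unc5a with 37 and Unc5b with 36 held more than Ntn4, although neither gene was detected on all arrays. Over the array, 8860 genes detected on all 6 arrays had a median of 21 CG pairs, and 5592 other genes a median of 7. Within the family, high and low CG content did not line up with detected and undetected genes. A gene can have further starts, the windows of Ntng1 and Unc5a lie inside their genes, and no methylation was measured.

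Among the receptors, Dcc encodes the attractive netrin receptor. Probe set 1440487_at gave 8.01, 7.87 and 8.02 after noise and 7.88, 8.07 and 8.34 without noise. The groups overlapped, and the highest value was that of an unexposed mouse. The difference was -0.13 (SE 0.16, adjusted p = 0.851, limma), and it was 0.09 against the first-day unexposed mouse alone and -0.11 against the unexposed female alone.

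A second Dcc probe set, 1422162_at, lay about the cutoff, at 4.65, 4.15 and 4.39 against 4.93, 4.10 and 4.59. It passed on 4 arrays, and the difference was -0.14 (SE 0.24, adjusted p = 0.890, limma). Against the 1 unexposed female alone it was 0.30, the opposite sign, and against the first-day unexposed mouse alone it was -0.54. The third, 1441572_at, stayed between 3.12 and 3.57 and passed on no array.

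Neo1 encodes neogenin, a receptor for netrins and repulsive guidance molecules, and had the most tested probe sets of the family, 5. They differed in sign, as did those of 78.2% of the 220 genes with 5 tested probe sets and 49.9% of the 5262 genes with several. A split of this kind is thus common on these arrays. Probe set 1434931_at gave 9.72, 9.81 and 9.51 after noise and 9.56, 9.38 and 9.01 without noise. The lowest noise-exposed mouse lay just under the highest unexposed mouse. The difference was 0.36 (SE 0.18), with a 95% interval of -0.07 to 0.79 (adjusted p = 0.711, limma). It was 0.12 against the first-day unexposed mouse alone and 0.30 against the unexposed female alone.

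Probe set 1447693_s_at gave 9.56, 9.40 and 9.38 after noise and 9.34, 8.93 and 9.31 without noise. The groups did not overlap, by a margin smaller than the spread within either group. The difference was 0.25 (SE 0.16, adjusted p = 0.746, limma), with 0.10 against the first-day unexposed mouse alone and 0.51 against the unexposed female alone. Probe set 1447694_x_at, designed on the same transcript accession, gave 5.81, 7.26 and 7.48 against 6.12, 5.88 and 6.18. Here 2 noise-exposed mice stood above all others and the third was the lowest of all 6. The difference was 0.79 (SE 0.40, adjusted p = 0.711, limma), and 98.1% of all tested probe sets had a smaller SD over the arrays. With each mouse left out in turn, it ran from 0.48 without the third noise-exposed mouse to 1.31 without the first.

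Probe set 1440789_at went the other way, with 7.09, 7.41 and 7.27 after noise and 7.64, 7.59 and 8.30 without noise. All noise-exposed mice were below all unexposed mice. The group means were 7.25 ± 0.16 and 7.84 ± 0.40 (SD, n = 3 each). The difference was -0.59 (SE 0.22), with a 95% interval of -1.10 to -0.08. Its unadjusted p of 0.0283 was the lowest of the family in limma and its adjusted p 0.697. The difference was -0.38 against the first-day unexposed mouse alone and -0.34 against the unexposed female alone. The fifth probe set, 1444295_at, gave 6.61, 5.76 and 6.33 against 6.54, 5.83 and 7.40, a difference of -0.36 (SE 0.39, adjusted p = 0.829, limma). Its groups overlapped, and the difference was 0.05 without the third unexposed mouse, 0.40 against the unexposed female alone and -0.31 against the first-day unexposed mouse alone.

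**Figure D3:**
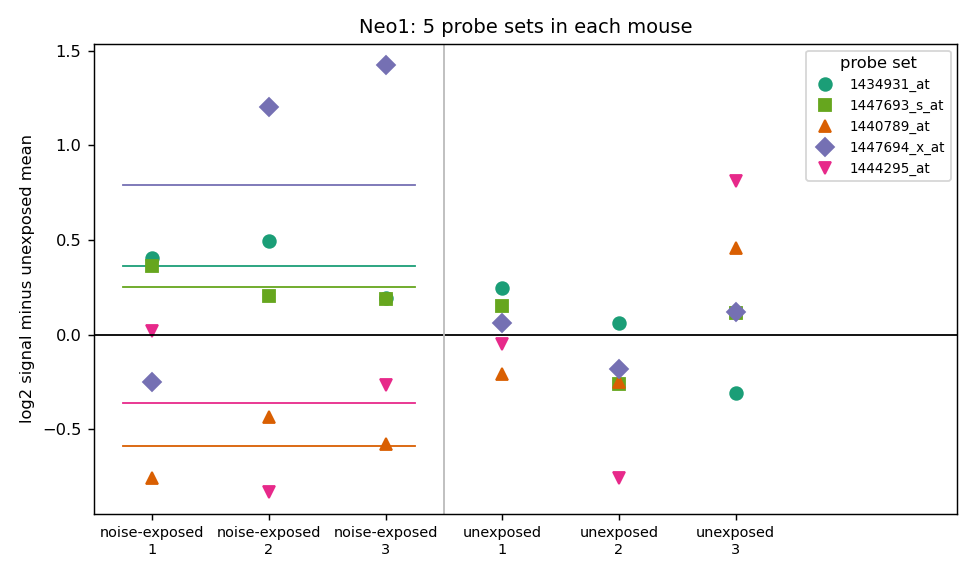
Signal of the 5 Neo1 probe sets in each of the 6 mice (horizontal axis), as log2 signal minus that probe set's mean in the unexposed mice (vertical axis), with the noise-exposed mean as a line. The noise-exposed means lie at 0.36, 0.25 and 0.79 for 3 probe sets and at -0.59 and -0.36 for the other 2.

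Because 2 probe sets of 1 gene on the same array share that array's RNA, the Neo1 probe sets were also compared within each mouse. Signal of 1434931_at minus signal of 1440789_at was 2.63, 2.40 and 2.24 after noise and 1.93, 1.79 and 0.71 without noise. For 1447693_s_at minus 1440789_at it was 2.47, 1.99 and 2.12 against 1.71, 1.34 and 1.01. In both, every noise-exposed mouse was above every unexposed mouse, by 0.95 and 0.84 on average. For 1447693_s_at minus 1440789_at this was fixed in advance, because each probe set already separated the groups, in opposite directions. The separation of that pair therefore adds nothing to the values of its probe sets given above. For 1440789_at minus 1447694_x_at the difference between groups was -1.38, also without overlap, and the other 7 of 10 pairs overlapped. These pairs were chosen after the values had been seen. Each of the 3 had an exact permutation p of 0.1, the smallest this design allows, or 0.333 after Benjamini-Hochberg adjustment over the 10. All 3 involve 1440789_at. The array files do not place the probes in the transcript, so the part of the Neo1 transcript behind each signal is not given here. The mean over the 5 probe sets differed by 0.09 (SE 0.16, adjusted p = 0.893, limma).

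The UNC5 genes encode the repulsive netrin receptors. For Unc5c, probe set 1449522_at gave 8.20, 8.21 and 8.19 after noise and 8.28, 8.67 and 8.31 without noise. The noise-exposed mice were nearly identical and all lower than the unexposed mice, of which 1 stood above the rest. The difference was -0.22 (SE 0.16), with a 95% interval of -0.58 to 0.14 (adjusted p = 0.755, limma). It was -0.08 against the first-day unexposed mouse alone and -0.47 against the unexposed female alone. The second Unc5c probe set, 1419592_at, carries the same transcript accession but stayed between 2.79 and 3.42.

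Unc5d was measured by 1 probe set, 1440484_at, with 7.37, 7.38 and 7.63 after noise and 7.34, 7.47 and 7.69 without noise. The groups covered almost the same range. The difference was -0.04 (SE 0.16, adjusted p = 0.956, limma). It was 0.12 against the first-day unexposed mouse alone and -0.01 against the unexposed female alone. Unc5a, by 1434095_at, gave 4.42, 3.80 and 4.14 against 4.03, 3.63 and 3.45. It passed the cutoff in 1 noise-exposed mouse and was not tested. Unc5b stayed under the cutoff in every mouse, between 3.39 and 3.67 for 1435110_at and between 3.18 and 3.36 for 1453269_at.

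The authors' deposited table of 17 arrays gives a second view of the receptors' levels. It combines the 6 arrays with 11 arrays of other series, which are not analysed here. It was normalized separately, so its means are set beside those of the 6 arrays without a test, and the 6 arrays enter both. The table holds 19 probe sets of 8 family genes, without Ntn1 and Ntn4. There, 7 probe sets of 5 genes, Dcc, Neo1, Ntng2, Unc5c and Unc5d, had a Bonferroni-corrected p under 0.05 in the authors' deposited table for a signal above 5.1.

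The 2 tables differed in which Dcc probe set was bright. Probe set 1440487_at had a mean of 8.03 ± 0.17 (SD, n = 6) on the 6 arrays and of 4.90, with an SD of 2.32, in the authors' deposited table. Probe set 1422162_at had 4.47 ± 0.32 (SD, n = 6) and, in the authors' deposited table, 6.28 with a corrected p of 4.17e-06. With that mean and an SD of 0.437 over 17 arrays, the 6 modiolus arrays cannot average under 5.7 in the authors' deposited table. The level of this probe set on the same 6 arrays thus differed between the 2 normalizations.

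For Ntng1 1449286_at the means were 10.26 ± 0.07 (SD, n = 6) and, in the authors' deposited table, 7.45 with an SD of 1.95 and a corrected p of 0.0961. For Neo1 1440789_at they were 7.55 ± 0.42 (SD, n = 6) and, in the authors' deposited table, 4.11. Both means were higher in the 6-array values. For Unc5b 1435110_at the order was the reverse, with 3.55 ± 0.10 (SD, n = 6) and, in the authors' deposited table, 6.09. Unc5c 1449522_at was high in both, at 8.31 ± 0.18 (SD, n = 6) and, in the authors' deposited table, at 7.44 with a corrected p of 1.34e-11. In the authors' deposited table, the 6 arrays cannot average over 10.02 for Ntng1 1449286_at or over 5.76 for Neo1 1440789_at. For Unc5b 1435110_at they cannot average under 4.56 there. For Ntng2 1432033_at they cannot average under 5.27 there, beside 3.95 in the 6-array values. The levels of these probe sets on the same 6 arrays thus differed between the normalizations. The share of normalization in the gaps between the means cannot be told apart from tissue, strain and handling of the other arrays. None of the 9 receptors in the authors' deposited list of called receptors belongs to the family.

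**Figure D4:**
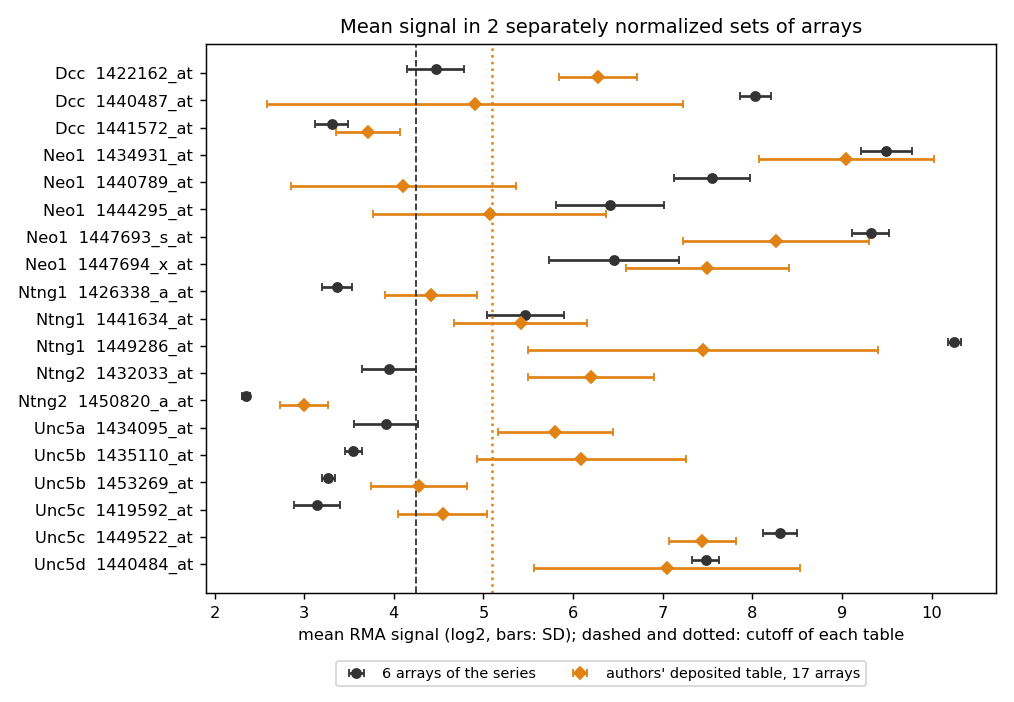
Mean signal (log2, horizontal axis, bars SD) of 19 netrin-family probe sets on the 6 modiolus arrays (circles) and in the authors' deposited table of 17 arrays (diamonds), with the cutoff of each table as a dashed and a dotted line. Dcc 1440487_at, Neo1 1440789_at and Ntng1 1449286_at lie higher on the 6 arrays. Among those that lie lower are both Unc5b probe sets, Ntng2 1432033_at, Unc5a 1434095_at and Dcc 1422162_at.

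Genes that work with the family were read by 1 probe set each, the brightest tested one. Of 19 other ligands, co-receptors and netrin-binding proteins, 13 were measured, 7 above and 6 below 0, with a median log2 fold change of 0.01. None was called by limma, and 1 of 13 had groups that did not overlap, beside 13.5% of all tested probe sets. That gene was Lrrc4, which encodes the netrin-G2 ligand. Its probe set 1435832_at gave 8.05, 8.15 and 7.88 after noise and 7.35, 7.57 and 6.94 without noise. Every noise-exposed mouse was higher, by 0.74 on average (SE 0.19, unadjusted p = 0.00528, adjusted p = 0.667, limma). It was 0.46 against the unexposed female alone. The other Lrrc4 probe set, 1416097_at, differed by 0.04 (SE 0.20).

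Lrrc4c, the netrin-G1 ligand, gave 6.67, 7.01 and 6.27 against 7.47, 6.85 and 7.19 with probe set 1437201_at. The groups overlapped, with a difference of -0.52 (SE 0.24, adjusted p = 0.707, limma), and a second probe set differed by -0.01 (SE 0.29). The first gave -0.82 against the first-day unexposed mouse alone and -0.20 against the unexposed female alone. Rgma, a repulsive ligand of neogenin, differed by 0.24 (SE 0.15), and Dscam, an adhesion protein that can act as a netrin receptor, by -0.22 (SE 0.21), or 0.11 against the first-day unexposed mouse alone. Ntn3, Hjv, Draxin, Dscaml1, Adora2b and Itgb4 were not measured.

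Of 26 intracellular partners of these receptors 22 were measured, 9 above and 13 below 0, with a median of -0.05. None was called. An unadjusted p under 0.05 in limma was found for 5 of 22, beside 7.07% of all tested probe sets. The groups were fully separated for 5 higher and 3 lower genes, beside 13.5% of all tested probe sets in either direction. Here, as for the other lists, each gene was read by its brightest probe set, whereas the background counted all tested probe sets. The list was also chosen with earlier results of these data known, so no excess over the background is read from these counts. The lowest unadjusted p belonged to Trim67, a relative of the DCC-binding ubiquitin ligase TRIM9, with a difference of 0.57 (SE 0.18, adjusted p = 0.667, limma). Tubb3, a neuronal tubulin that also stands in the neuron marker list, differed by 0.48 (SE 0.15). Siah2, of a ubiquitin ligase family that targets DCC for degradation, differed by 0.52 (SE 0.20), and by 0.89 against the unexposed female alone.

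Map1b, a microtubule protein of growing axons, differed by -0.62 (SE 0.22, adjusted p = 0.691, limma) with its brightest probe set. Its other 2 probe sets gave -0.08 (SE 0.25) and 0.44 (SE 0.41). The other 4 genes of this list were not analysed here.

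**Figure D5:**
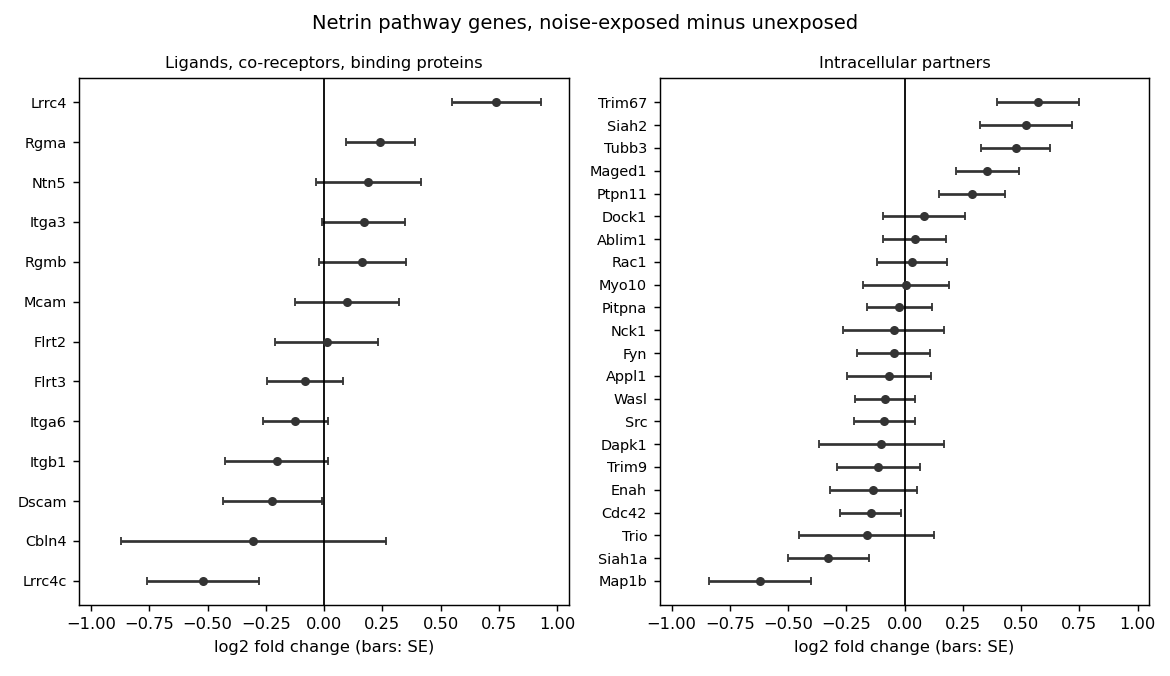
Log2 fold change (horizontal axis, noise-exposed minus unexposed, 3 mice each, bars SE) of 13 ligands, co-receptors and binding proteins (left) and 22 intracellular partners (right), 1 probe set per gene. Lrrc4 at 0.74 and Map1b at -0.62 lie farthest from 0, and no gene was called by limma.

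Markers were read to check the tissue. All 10 neuron markers and 6 Schwann and satellite glia markers were measured, and the 4 hair cell markers on the array (Otof, Myo7a, Slc26a5 and Pou4f3) were under the cutoff in every mouse, at most 3.61. The summed linear signal of the neuron markers was 21584 to 24366 after noise and 21111 to 24587 without noise, and 8 of 10 had a log2 fold change above 0, beside 56.3% of all tested probe sets. The 6 fibroblast and matrix markers summed to 4874 to 5196 after noise and 4090 to 4722 without noise, and 6 of 6 were above 0. Sums of the Schwann and satellite glia, central glia, osteoblast, endothelium, supporting cell and macrophage markers overlapped. Above 0 were 4 of 6 Schwann and satellite glia, 5 of 6 central glia, 5 of 7 osteoblast, 6 of 8 endothelium, 2 of 4 supporting cell and 5 of 5 macrophage markers. Fully separated between the groups were 2 of 6 Schwann and satellite glia and 2 of 6 central glia markers, beside 13.5% of all tested probe sets. All were higher after noise: Mobp by 0.78 (unadjusted p = 0.0037, adjusted p = 0.667, limma), Mog by 0.51, S100b by 0.32 and Mbp by 0.25. Pmp22 at -0.05, Egr2 at -0.11 and Cnp at -0.01 went the other way. Also separated and higher were 1 of 10 neuron, 2 of 6 fibroblast, 1 of 7 osteoblast and 1 of 5 macrophage markers. Of the supporting cell markers 1 of 4 was separated and lower, Lgr5 at -0.54, and no endothelium marker was separated. The fibroblast sums did not overlap between the groups. The part of these markers in the values above was not tested. Arrays held 24671 to 25371 probe sets above the cutoff. Total RNA was 10 to 18 ng in the noise-exposed and 8 to 21 ng in the unexposed mice.

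For each gene detected on all 6 arrays, the nearest probe set of another gene was the one whose mean-centred log2 values lay closest over the 6 mice, as a Euclidean distance. Only probe sets at least as variable were considered. Neo1 1434931_at was nearest to Apba1 (0.12), Dcc 1440487_at to Agps (0.07) and Unc5c 1449522_at to Zfp688 (0.10). Ntn4 1439794_at was nearest to Klf9 (0.17), Ntng1 1449286_at to Ube2e1 (0.08) and Unc5d 1440484_at to Npr3 (0.08). With 6 arrays and between 3500 and 20453 candidates each, these neighbours are descriptions only.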

How the data were processed

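Messenger RNA was measured in 6 mice, grouped by the labels as separate animals. Per the labels' protocols, RNA was reverse transcribed, linearly amplified and biotinylated with an Ovation kit, and amplification from so little RNA may add to the array spread. The authors deposited log2 signals, made per their code file by robust multi-array averaging (RMA) of the 6 arrays, with R 2.6.1 and Bioconductor 2.1 per the series' design text. Quantile normalization within RMA would hide a shift of most transcripts in 1 direction. The authors' deposited 17-array table gives mean log2 signals and Bonferroni-corrected p-values of a one-sided test against 5.1. Their deposited list of called receptors (score, fold ratio and q-value in percent) was read only for membership; its header names SAM 3.02.

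Probe sets took gene names from the platform annotation; 34958 of 45101 had 1 symbol, 932 several and 9211 none, and 34754 matched RefSeq by Entrez ID. Control probe sets (64) were left out. Probe sets above the authors' cutoff on at least 3 arrays entered a two-sided limma fit (version 3.58.1, R 4.3.3, group as the only term), with Benjamini-Hochberg adjustment over all 25200 and a threshold of 0.05. The procedure was tested on simulated data. The number of arrays limits the precision.

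The 10 genes and the lists were chosen with earlier results of these data known. The text names every family probe set, the 4 genes of lowest unadjusted p in each of the 2 pathway lists, and the nearest probe set of each gene detected on all arrays. Alternatives covered normalization, filter, eBayes settings, sex, day, RNA amount, probe sets per gene, a replicate block and each array left out. Values against the 1 unexposed mouse of the first day, or the 1 unexposed female, stand beside the family's tested probe sets where they move the value by over 1.5 times or turn its sign. No protein sequences were used, and Ntn1, Dcc and Unc5d had no promoter window here.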

Additional observations from a re-analysis of the deposited data

How the results depend on the processing

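No family probe set and no pathway gene was called by limma under any alternative, and the lowest adjusted p of a family probe set was 0.293. Over all probe sets, 0 were called in the full comparison (1781 at an unadjusted p under 0.05), 3 on the first dissection day only, and 0 to 15 with each array left out; the 15 came without unexposed replicate 2. The detected genes numbered 6 to 7, with Ntn1 the seventh without unexposed replicate 1. The family's median log2 fold change ran from -0.13 to 0.05 with each array left out and was 0.10 on the first day only and 0.13 in females only. It lay above 0 in 8 of 18 alternatives. Of 372 values of single probe sets under alternatives, 351 kept their sign and 21 turned it. The filter, eBayes and replicate block settings cannot change a log2 fold change, so part of the kept signs was fixed in advance. Sex as a covariate and females only gave the same values, as did day as a covariate and the first day only. All of these settings are counted separately here and in the 8 of 18. With sex as a covariate or females only, Dcc 1422162_at gave 0.30 and Neo1 1444295_at 0.40. With day as a covariate or the first day only, Ntng1 1430779_at gave 0.20, Ntng1 1441634_at 0.29, Dcc 1440487_at 0.091, Unc5d 0.12 and Dscam 0.11. Unc5d gave 0.0048 with total RNA as a covariate. With each array left out, the ranges that crossed 0 were -0.36 to 0.054 for Dcc 1422162_at, -0.74 to 0.046 for Neo1 1444295_at, -0.014 to 0.44 for Ntn4 1439794_at, -0.31 to 0.0068 for Ntng1 1430779_at and -0.13 to 0.056 for Unc5d. The cause of these turns was not tested. The values on 1 day or in females rest on 1 unexposed mouse, assumed to vary like the others.

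With the replicate number as a block, 0 family probe sets were called and the median was -0.08. Same-numbered mice of the 2 groups had deviations correlated at 0.09, 0.03 and -0.04, and differently numbered mice at -0.21 to 0.19. Deviations were taken from each group's own mean and sum to 0 within it. These correlations therefore cannot show whether the numbers pair the mice. By the labels, no litter was shared between the groups.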

Other observations

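Probe set 1423513_at is named Neo1 in the authors' deposited table (mean 8.05), but Uhrf1bp1l in the platform annotation, and was therefore not counted above. It gave 8.45, 8.35 and 8.54 after noise and 8.27, 8.29 and 8.40 without noise. The groups overlapped, and the difference was 0.13 (SE 0.14, adjusted p = 0.818, limma).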
